A study of Mus musculus with 8 samples.

Results

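The histone variant H2A.Z was examined at 10 genes grouped as mouse spermatogonial stem cell genes: Gfra1, Ret, Etv5, Id4, Zbtb16, Sall4, Eomes, Nanos2, Nanos3 and Lin28a. They were chosen by name, 10 of 21900 protein-coding genes, and for each the H2A.Z peaks and differential regions were taken in the gene span and within 1 kb and 5 kb of either gene end. The data are ChIP-seq, in which DNA bound by H2A.Z is pulled down and sequenced, from dissociated testes of mice aged 14 postnatal days. One group was control and the other Znhit1-CKO, called Znhit1-sKO in the protocol, each with 2 H2A.Z immunoprecipitates and 2 inputs. ZNHIT1 is a subunit of the SRCAP complex, which places H2A.Z in chromatin, and the series asks how it affects where H2A.Z lies in germ cells. The sources used here do not give the strain, the allele of the control mice, or the driver and cell type of the deletion.

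Spermatogonial stem cells are the few germ cells of the testis that renew themselves and give rise to differentiating spermatogonia. Sertoli cells secrete the growth factor GDNF, which binds the co-receptor GFRA1 and signals through the kinase RET, and this signal maintains the genes of transcription factors such as ETV5 and ID4. ZBTB16 (PLZF), SALL4 and EOMES are transcription factors of undifferentiated spermatogonia, and NANOS2, NANOS3 and LIN28A are RNA-binding proteins of the same cells or of their germ cell precursors. H2A.Z usually lies in the nucleosomes on either side of a transcription start, at active and at Polycomb-marked genes.

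The deposited lists hold 1 set of peaks for control, 1 for Znhit1-CKO, and 1 set of differential regions between them, and each entry is only a position. There is therefore no value per replicate, no depth per library and no replicate error for any width or count given here, and no test between the genotypes could be made on the peaks. The protocol reports over 30000000 reads per library. The differential regions are the authors' own calls and carry no direction, and 24362 of the 24367 are exactly 400 bp wide, so a region marks a fixed window and not the extent of a change. Stem cells are a small part of a whole testis, and no expression was measured, so neither the cell types nor the deletion of Znhit1 could be checked. Fewer cells of a type and less H2A.Z per cell cannot be told apart in these lists.

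Control peaks lay next to 9 of the 10 genes, within 1 kb of a gene end, against 67.6% of all protein-coding genes. The exception was Nanos3. In Znhit1-CKO 6 of the 10 had one, against 60.4%. Below, such a peak is called a boundary peak. In Znhit1-CKO, bases in peaks over the genes and 5 kb around them came to 15652 bp, against 25877 bp in control, which is 60.5%. This share was 53.2% with 1 kb around the genes and 50.8% in the gene spans alone. Over the whole genome the summed share was 58.0%. That sum includes peaks far from genes, so it is an unlike reference for these windows. Within the genes and 5 kb around them, peak bases were fewer in Znhit1-CKO at 9 of the 10 genes. This held at 87.5% of the 16950 protein-coding genes with control peak bases, so the direction was that of most genes. The median over the 10 genes was 59.9%, against 74.6% over those genes. Etv5 was the exception, with more peak bases in Znhit1-CKO than in control.

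**Figure D1:**
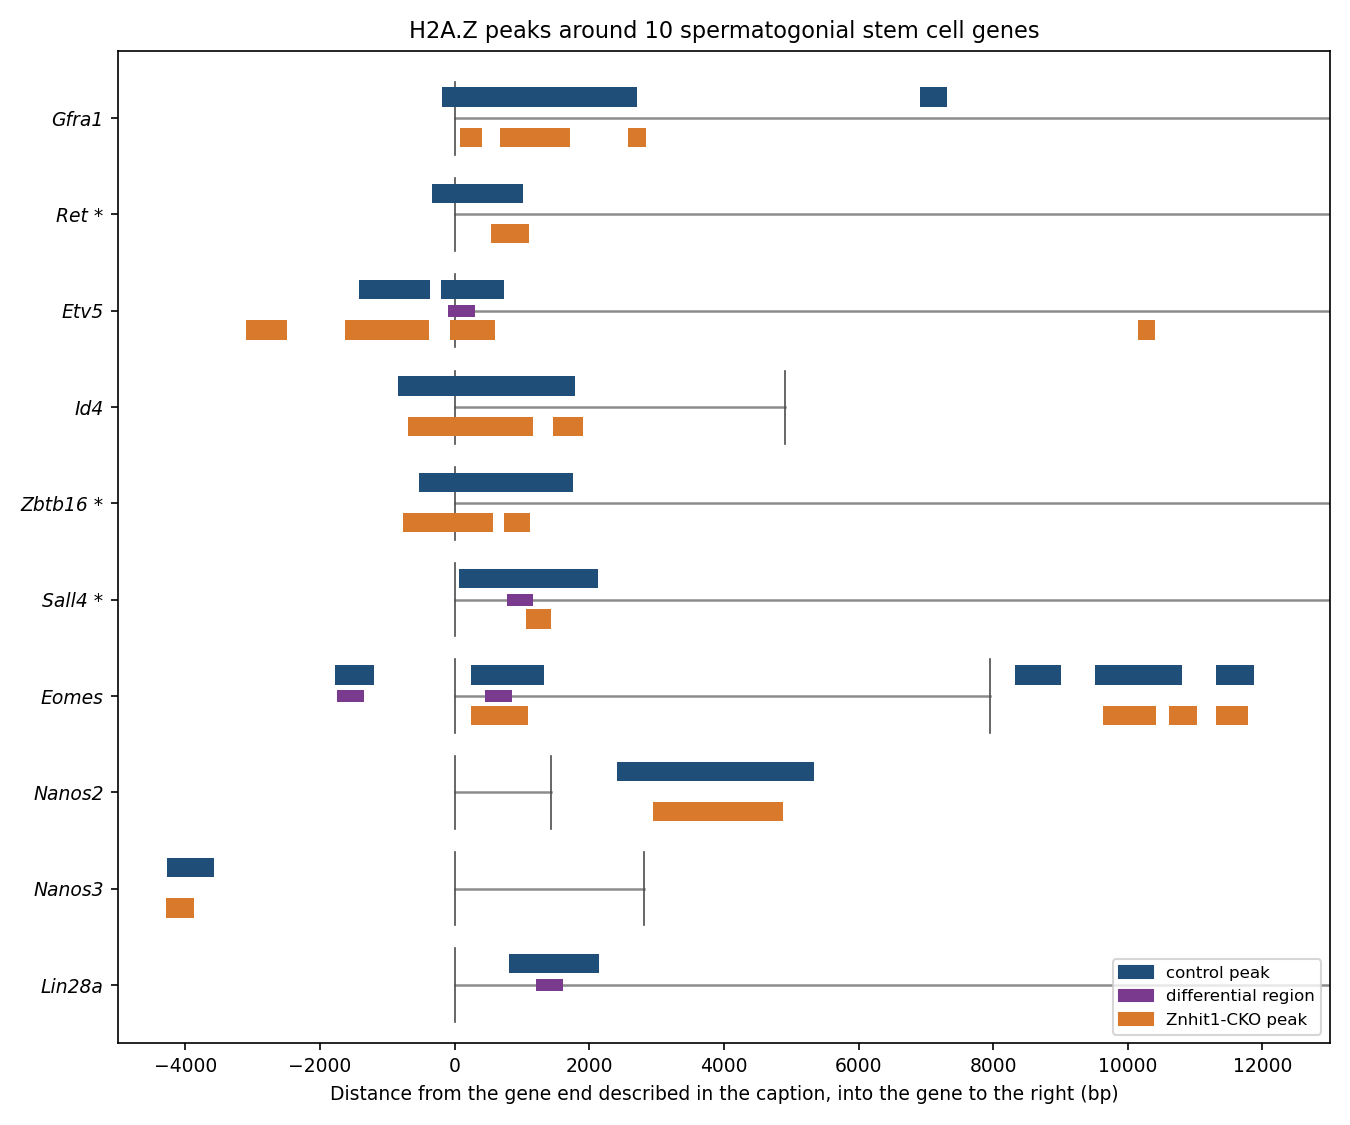
Position of control peaks (blue), Znhit1-CKO peaks (orange) and the authors' differential regions (purple) around each gene, in bp from the gene end next to the annotated start, or from the higher-coordinate end for the 3 genes marked with an asterisk. The grey line is the gene, a vertical line a gene end, and intervals over 5000 bp before that end or over 13000 bp beyond it are not drawn. Wide control peaks at Gfra1, Id4 and Zbtb16 lie over several Znhit1-CKO peaks, and no peak lies in the span of Nanos2 or Nanos3.

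The 250 bases before the annotated start are shown for 6 genes that differ in their peaks, from Id4, with peaks over the start in both genotypes, to Nanos2, with none in either. The sequences are from RefSeq (build GRCm38.p6, which shares its coordinates with mm10), written 5′ to 3′ on the strand of the gene, with every CpG dinucleotide in capitals. The table held starts for 7 of the 10 genes, and Zbtb16, Ret and Sall4 had none. The Lin28a and Gfra1 windows lie inside the annotated gene span, which reaches further upstream than the start used. The positions are chr13:48260866-48261115 (+) for Id4, chr16:22439571-22439820 (-) for the outer start of Etv5, chr19:58455399-58455648 (-) for Gfra1, chr4:134018817-134019066 (-) for Lin28a, chr8:84176553-84176802 (-) for Nanos3 and chr7:18987274-18987523 (+) for Nanos2.
Id4: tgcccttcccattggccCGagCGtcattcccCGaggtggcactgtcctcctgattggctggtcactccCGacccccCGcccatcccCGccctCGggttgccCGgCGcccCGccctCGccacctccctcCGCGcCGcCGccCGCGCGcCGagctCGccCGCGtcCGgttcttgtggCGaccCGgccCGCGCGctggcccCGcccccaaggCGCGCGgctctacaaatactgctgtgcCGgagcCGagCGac
Etv5: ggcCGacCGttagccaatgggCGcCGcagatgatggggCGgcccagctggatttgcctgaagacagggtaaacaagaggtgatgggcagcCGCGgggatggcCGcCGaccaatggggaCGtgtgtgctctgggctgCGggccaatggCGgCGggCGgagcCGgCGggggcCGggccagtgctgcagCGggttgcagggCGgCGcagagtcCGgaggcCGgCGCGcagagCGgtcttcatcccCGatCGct
Gfra1: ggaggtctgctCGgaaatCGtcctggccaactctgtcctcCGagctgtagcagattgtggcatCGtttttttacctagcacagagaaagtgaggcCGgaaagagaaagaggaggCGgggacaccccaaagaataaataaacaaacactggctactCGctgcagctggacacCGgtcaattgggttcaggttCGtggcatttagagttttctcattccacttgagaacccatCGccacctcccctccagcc
Lin28a: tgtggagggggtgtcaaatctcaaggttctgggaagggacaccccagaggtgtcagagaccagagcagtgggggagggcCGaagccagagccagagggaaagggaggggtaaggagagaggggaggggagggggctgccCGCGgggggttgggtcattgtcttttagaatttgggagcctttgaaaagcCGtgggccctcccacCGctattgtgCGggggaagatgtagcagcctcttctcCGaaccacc
Nanos3: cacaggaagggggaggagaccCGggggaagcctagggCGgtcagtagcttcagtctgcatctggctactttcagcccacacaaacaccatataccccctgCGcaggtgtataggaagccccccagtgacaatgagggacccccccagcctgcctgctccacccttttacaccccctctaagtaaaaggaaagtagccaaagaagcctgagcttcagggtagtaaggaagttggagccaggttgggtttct
Nanos2: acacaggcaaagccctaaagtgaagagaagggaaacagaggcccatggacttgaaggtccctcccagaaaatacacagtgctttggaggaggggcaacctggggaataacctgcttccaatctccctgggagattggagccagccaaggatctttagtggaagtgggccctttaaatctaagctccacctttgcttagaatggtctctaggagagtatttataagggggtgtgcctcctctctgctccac
Id4 had 35 CpG in its 250 bases and Etv5 had 27 at its outer start, and their sequences hold the most capitals of the 6. The inner start of Etv5, not printed, had 18 CpG and lay in no peak in either genotype, nor did the bases before it. Gfra1 had 10, Lin28a 7 and Nanos3 3, while Nanos2 had none. Over 21263 annotated starts of protein-coding genes the median was 10 CpG. It was 16 for the 12955 starts inside a control peak and 2 for the 8308 outside one. Among the 1406 starts with no CpG in these bases, as at Nanos2, 3.98% had a control peak within 1 kb.

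**Figure D2:**
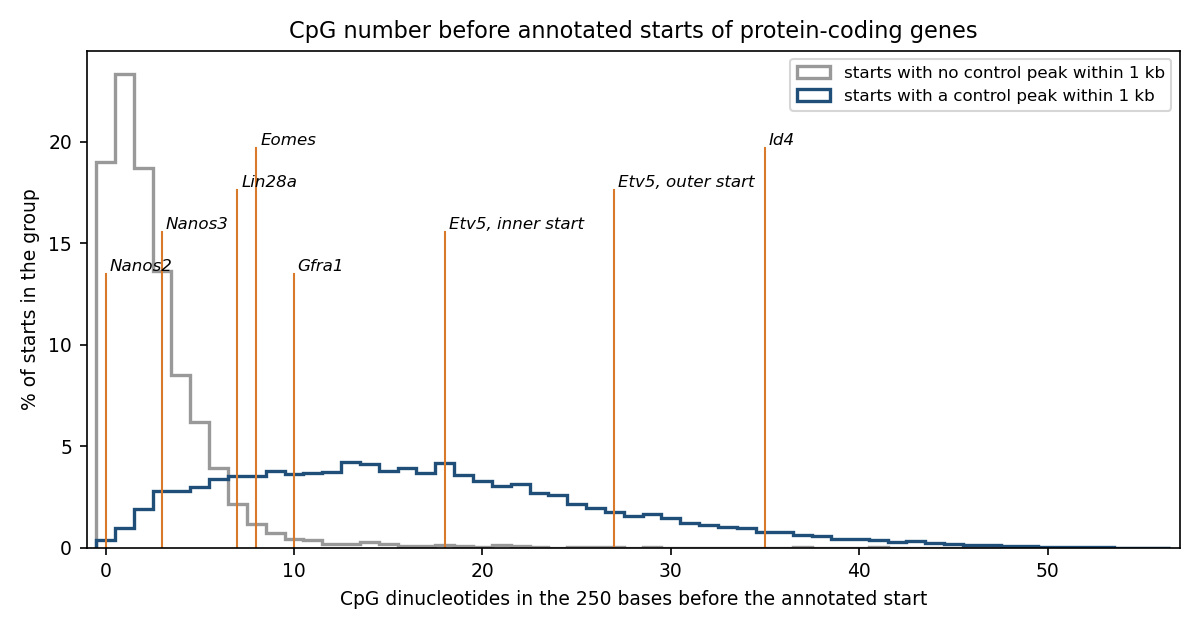
Percent of annotated starts (y axis) by the number of CpG dinucleotides in the 250 bases before the start (x axis), for starts with and without a control peak within 1 kb. Orange lines mark the 8 starts of the 7 genes with an entry. Nanos2 at 0 and Nanos3 at 3 CpG fall where starts without a control peak are frequent, and Id4 at 35 CpG does not.

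The GDNF receptor genes both kept a boundary peak in Znhit1-CKO, in a shorter or broken form. At Gfra1 (chromosome 19, 58235581 to 58455946), which encodes the GDNF-binding co-receptor, the control peak was 2904 bp wide and ran from 739 bp before the annotated start to 2164 bp after it. In Znhit1-CKO, 3 separate peaks of 318, 1033 and 269 bp lay over it and together held 51.4% of its bases. The first ended 146 bp before the start and the next began 131 bp after it, so the start lay inside a peak in control only. The authors called no differential region on this peak. Further inside Gfra1 lay control peaks of 400 bp, 6370 bp after the start, and of 970 bp, 96349 bp after it. Neither overlapped a Znhit1-CKO peak, and the second, farther one carried the only differential region of the gene (chromosome 19, 58358479 to 58358878). Gm46650, a protein-coding gene inside the Gfra1 span, had no boundary peak in either genotype.

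At Ret (chromosome 6, 118151748 to 118197744), the gene of the signalling kinase, the only control peak was 1349 bp wide and lay across the higher-coordinate end. The only Znhit1-CKO peak was 563 bp wide, began 537 bp inside the gene and held 35.7% of the control peak's bases. The part of the control peak over the gene end itself was thus in no Znhit1-CKO peak. No differential region lay within 5 kb of Ret or in it.

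Among the transcription factor genes, Etv5 differed from the other 9 genes in having more peak bases in Znhit1-CKO. ETV5 is an ETS factor needed for stem cell renewal, and its gene lies on chromosome 16 (22381313 to 22439570). In control, a peak of 948 bp covered the outer start and a peak of 1055 bp lay 361 bp upstream of it. In Znhit1-CKO these peaks were 670 and 1242 bp wide and held 70.7% and 97.5% of the control bases. Znhit1-CKO also had a peak of 609 bp that lay 2498 bp upstream of the outer start and one of 261 bp inside the gene, neither with a control peak. Peak bases in the gene and 5 kb around it came to 2782 bp in Znhit1-CKO and 2003 bp in control (139%). At least as many Znhit1-CKO as control bases were found at 12.5% of all genes with control bases. A differential region (22439275 to 22439674) lay across the start, on the peak that was narrower in Znhit1-CKO.

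Id4 kept most of its H2A.Z peak. ID4 is an inhibitor of DNA-binding factors that marks the stem cell pool, and its gene lies on chromosome 13 (48261116 to 48266028). The control peak was 2622 bp wide, from 839 bp before the start to 1782 bp after it. In Znhit1-CKO a peak of 1855 bp still covered the start, a second of 456 bp lay 1458 bp after it, and both together held 83.1% of the control bases. No differential region lay within 5 kb. Of the 7 genes with an annotated start, Id4 had the most CpG before it.

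At Zbtb16 (chromosome 9, 48651797 to 48836225), which encodes the zinc finger protein PLZF, the control peak at the higher-coordinate end was 2295 bp wide. In Znhit1-CKO it lay over peaks of 1340 and 376 bp, which held 64.6% of its bases, and the wider of these still covered the gene end. It carried no differential region. A control peak of 432 bp, 2154 bp beyond the other gene end, overlapped no Znhit1-CKO peak and carried a differential region (48649231 to 48649630). Inside the gene, a control peak of 290 bp had no Znhit1-CKO peak over it, and a Znhit1-CKO peak of 354 bp had no control peak. Gm32280, inside the Zbtb16 span, had no boundary peak in either genotype.

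Sall4 (chromosome 2, 168748332 to 168767201) kept the smallest share of peak bases among the genes whose boundary peak was still overlapped. SALL4 is a zinc finger factor of undifferentiated spermatogonia that acts with PLZF. The control peak, 2057 bp wide, ended 71 bp inside the higher-coordinate gene end. The Znhit1-CKO peak was 375 bp wide, lay wholly within the control peak and held 18.2% of its bases. A differential region (168766031 to 168766430) overlapped both peaks. The span of the long non-coding RNA gene Gm14261 overlaps the control peak and this region.

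Eomes (chromosome 9, 118478186 to 118486132), a T-box factor gene of a small self-renewing subset, had the most separate control peaks, 5, and 4 peaks in Znhit1-CKO, as many as Etv5. A control peak of 1077 bp began 242 bp after the start. The Znhit1-CKO peak there was 844 bp wide and held 78.1% of its bases, and a differential region (118478637 to 118479036) lay on both. A control peak of 574 bp that ended 1206 bp upstream of the start had no Znhit1-CKO peak and carried a second differential region (118476445 to 118476844), both inside the span of the long non-coding RNA gene Gm33408. That span also reaches into the control peak of 1077 bp and its differential region. Beyond the other gene end, a control peak of 672 bp had no Znhit1-CKO peak and no differential region. Past it, control peaks of 1289 and 555 bp were still overlapped, with 76.4% and 84.1% of their bases in Znhit1-CKO peaks. The outcome thus differed from peak to peak around the same gene.

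The RNA-binding protein genes Nanos2 and Nanos3 had no peak in the gene span in either genotype. Nanos2, whose protein represses differentiation RNAs and keeps stem cells undifferentiated, lies on chromosome 7 (18987524 to 18988962). Its only nearby control peak, 2924 bp wide (18989932 to 18992855), began 2408 bp after the start and 970 bp beyond the other gene end. That peak holds the annotated start of the next gene, Mypop (18991245), which encodes a Myb-related repressor. The Znhit1-CKO peak there was 1937 bp wide, lay wholly inside the control peak, held the Mypop start as well and began 1503 bp from the Nanos2 end. A window of 1 kb therefore scores Nanos2 as having lost its boundary peak, although the peak was still called with 66.2% of its bases and no differential region was called within 5 kb. The annotated start of Nanos2 was more than 2 kb from any peak in both genotypes.

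At Nanos3 (chromosome 8, 84173733 to 84176552), needed for the survival of germ cell precursors, the only control peak within 5 kb was 697 bp wide and lay 3573 bp upstream of the start. A Znhit1-CKO peak of 411 bp overlapped it and held 57.1% of its bases. There was no differential region. The neighbouring gene 4930432K21Rik ends 1136 bp from Nanos3. Its own boundary peak, at its far end, measured 1343 bp in control. In Znhit1-CKO it measured 1433 bp, and a differential region lay at that boundary.

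Lin28a was the only one of the 9 genes at which no Znhit1-CKO peak overlapped a control boundary peak. LIN28A binds the let-7 microRNA precursors and marks undifferentiated spermatogonia, and its gene lies on chromosome 4 (134003330 to 134019196). The control peak was 1338 bp wide (134017053 to 134018390) and lay from 426 to 1763 bp after the annotated start. The nearest Znhit1-CKO peak was 15700 bp away. A differential region (134017589 to 134017988) lay inside the control peak, 828 bp after the start. At the other side of the gene, 1561 bp beyond its end, a control peak of 1429 bp held a start of the neighbour Dhdds (134000882), an enzyme gene of dolichol synthesis. It was still called in Znhit1-CKO at 1047 bp, with 70.9% of its bases, and also carried a differential region.

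**Figure D3:**
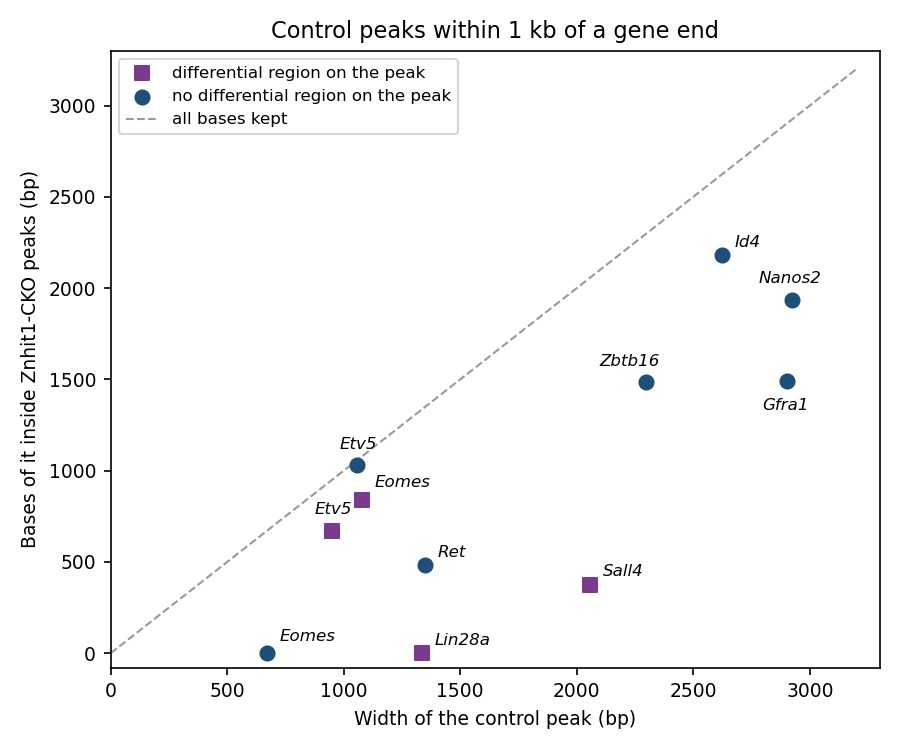
Width of each of the 11 control boundary peaks (x axis, bp) against the number of its bases inside Znhit1-CKO peaks (y axis, bp), with squares for peaks that carry a differential region. The Lin28a peak and 1 Eomes peak lie at 0, Sall4 at 375 bp of 2057 bp, and 1 Etv5 peak near the dashed line of all bases kept.

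Counted over the genes, the outcome depended on how a loss was defined. With the 1 kb window, 3 of the 9 genes with a control boundary peak had no Znhit1-CKO boundary peak (Lin28a, Nanos2 and Sall4), against 11.5% of 14815 protein-coding genes. Where no Znhit1-CKO peak was allowed to overlap a control boundary peak, only Lin28a remained, 1 of 9 against 11%. The Sall4 peak had been scored as lost because its Znhit1-CKO remnant lay 1055 bp from the gene end, just outside the window. The count of 3 is thus made of 1 absent peak, 1 narrowed peak and 1 peak over the start of a neighbour. With a 2 kb window the count was 0 of 9, against 11.4%, since the windows then took in the Sall4 remnant, the Mypop peak at Nanos2 and the Dhdds peak at Lin28a.

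Differential regions lay within 1 kb of an end of 3 of the 9 genes (Etv5, Sall4 and Eomes), against 62.8% of genes with a control boundary peak. Counting regions that overlapped a boundary peak added Lin28a, 4 of 9 against 65.8%. Both counts were below the background share, but with 9 genes chosen by name this is a description. In all, 8 differential regions lay in the 10 genes or within 5 kb of them, at 6 genes. All 8 lay on a control peak and 4 of them also on a Znhit1-CKO peak. The same shares over all 24367 regions were not computed, so these counts cannot be read as a trait of these genes. The boundary peaks of Gfra1, Ret, Id4, Zbtb16 and Nanos2 that were shorter or broken in Znhit1-CKO carried none.

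By single peaks, 9 of the 11 control boundary peaks were overlapped by a Znhit1-CKO peak, against 82% of all 15147. Within 5 kb of an end it was 13 of 17, against 71.3%. In the gene spans it was 7 of 11, against 63.5%. Over 5 kb from both ends it was 0 of 3, against 37.2%, namely both inner Gfra1 peaks and that of Zbtb16. At the gene ends these shares were near those of other genes. Differential regions lay on 4 of the 11 boundary peaks, against 59.6%, on 7 of the 17 peaks within 5 kb of an end, against 55.7%, on 5 of the 11 in the spans, against 54.7%, and on 1 of the 3 inner ones, against 45.1%. Of the 11 boundary peaks, 3 lay over 2 or more Znhit1-CKO peaks, against 8.2%. The control boundary peaks of the 9 genes kept a median of 51.4% of their bases, against 78.6% over all genes. The widest boundary peak had a median width of 2057 bp in control, against 1429 bp over all genes. It was at least 2000 bp wide at Gfra1, Id4, Zbtb16, Sall4 and Nanos2, 5 of 9 against 13.3%. The peak counted for Nanos2 holds the start of the neighbour Mypop. It enters these counts and medians by its distance from the Nanos2 end alone. All 5 of these wide peaks were overlapped by a Znhit1-CKO peak, against 99.1% of the 1701 boundary peaks of that width. The same 3 (Gfra1, Id4 and Zbtb16) are among these 5, against 27.3% of the 1701 that lay over 2 or more. Only that of Sall4 carried a differential region, 1 of 5 against 71.4%. Their median share of bases kept was 64.6%, against 79.9%. The width of 2000 bp was chosen after the values were seen.

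**Figure D4:**
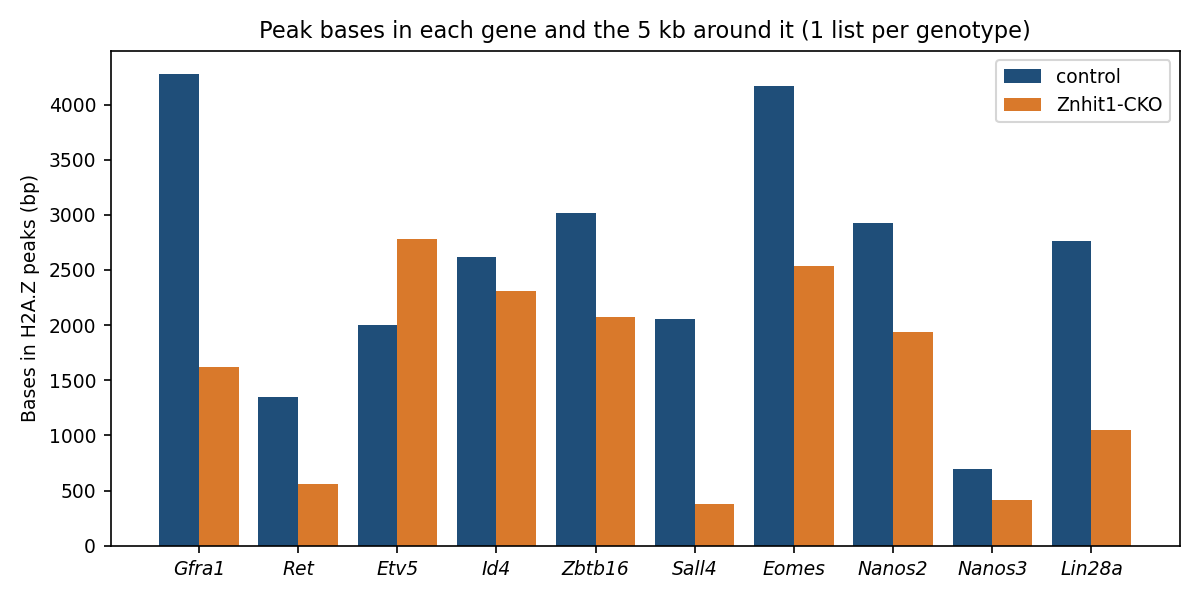
Bases in H2A.Z peaks (y axis, bp) in each gene and the 5 kb around it, in the control and the Znhit1-CKO list, with 1 value per genotype and no error. Only Etv5 has a higher Znhit1-CKO bar (2782 against 2003 bp), and Sall4 has the lowest Znhit1-CKO bar (375 bp).

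Several of the annotated starts themselves lay outside any peak. Of the 8 starts of 7 genes, 3 lay inside a control peak (Gfra1, Id4 and the outer start of Etv5), against 60.9% of 21263 starts. In Znhit1-CKO, Id4 and Etv5 remained, 2 of 8 against 51.2%. Within 1 kb of a start, 6 of the 8 had a control peak, against 66.5%. At Eomes and Lin28a the peak lay downstream of the start, and at Nanos2 and Nanos3 there was none.

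Other gene lists, chosen with earlier results of these data known, were described in the same way. They are not all genes of stem cells. Widths below are those of the widest control boundary peak of a gene, and shares kept are over all its control boundary peaks. Of 12 genes of GDNF, FGF and chemokine signalling, 11 had a control boundary peak, against 67.6% of all protein-coding genes. None of the 11 was lost by window or overlap, against 11.5% and 11%. A differential region lay at a boundary of 4, against 62.8%. The control boundary peaks were wide, with a median of 2396 bp and 65.6% of bases kept. Gdnf, the ligand of the pathway, had a control peak of 2641 bp and kept 92.7%. Cxcr4, a chemokine receptor gene, had one of 3069 bp and kept 94.9%. Spry4, the gene of a feedback inhibitor of receptor signalling, had one of 2894 bp and kept 64.7%. Cxcl12, the CXCR4 ligand gene, had one of 2749 bp and kept 45.4%. None of these 4 genes had a differential region at a boundary. The ligand gene thus kept more than the receptor genes Gfra1 and Ret. GDNF comes from Sertoli cells, so this sets genes of different cell types side by side.

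Of 14 other regulators of undifferentiated spermatogonia, all had a control boundary peak, against 67.6% of all protein-coding genes. Of these 14, 4 were not overlapped in Znhit1-CKO, against 11%, and 3 were lost by window, against 11.5%. A differential region lay at a boundary of 5, against 62.8%. The median share of bases kept was 49.99%. Foxo1, a forkhead factor gene, had a control peak of 3670 bp and kept 89.4% with a differential region. Dmrt1, Pou3f1 and Bcl6b had widest peaks of 2400, 2387 and 2293 bp, kept 50.1%, 51.8% and 49.9%, and had no differential region. The 4 genes without overlap, named after their values were seen, were Lhx1 (1945 bp, with a differential region), Pdx1 (759 bp), Neurog3 (327 bp) and Pax7 (236 bp), the last 3 with none.

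Of 11 genes of surface markers, 10 had a control boundary peak, against 67.6% of all protein-coding genes. Of the 10, 2 were not overlapped, against 11%, and the same 2 were lost by window, against 11.5%. A differential region lay at a boundary of 8, against 62.8%. Adgra3, Itga6, Cdh1 and Mcam had the widest peaks, from 1589 to 2136 bp, and kept 63.8%, 83.0%, 23.6% and 57.4%, each with a differential region. Those not overlapped were Thy1 (967 bp) and Plvap (646 bp), also named after their values were seen, and neither had a differential region. The surface markers thus had differential regions at 8 of 10 genes and the stem cell genes at 3 of 9, against 62.8% of all genes with a control boundary peak. The difference was not tested.

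Paralogues of the 10 genes, mostly used in other tissues, had a control boundary peak at 15 of 16, against 67.6% of all protein-coding genes. None of the 15 was without overlap, against 11%. By window 1 was lost (Tbr1, named after its values were seen), against 11.5%. A differential region lay at a boundary of 11, against 62.8%. The median share of bases kept was 41.9%. Gfra2, a paralogue of Gfra1 that binds neurturin, kept 16.8% and carried 2 differential regions. Id2 kept 24.2% and carried 2. Sall3 kept 43.9% and carried 1. Etv1, with a control peak of 4376 bp, kept 93.0% and carried 1. The boundary peaks of Gfra1 and Id4 carried no differential region, while those of Gfra2 and Id2 did. In the pairs Etv5 and Etv1, and Sall4 and Sall3, both genes had one. These pairs come from the 4 paralogues with the widest control peaks, and the other paralogues were not compared.

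Of 7 genes of differentiating spermatogonia, 6 had a control boundary peak, against 67.6% of all protein-coding genes. Of the 6, 2 were not overlapped in Znhit1-CKO, against 11%, and the same 2 were lost by window, against 11.5%. A differential region lay at a boundary of 3, against 62.8%. The median share kept was 25.4%. Kit, the receptor gene that marks these cells, kept 77.6%, Ccnd2 74.0%, Rarg 25.8% and Sohlh2 24.9%. Sohlh1 (452 bp) and Stra8 (205 bp), named after their values were seen, had narrow control peaks and no overlap.

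Markers of other testis cells also differed between the lists. Of 8 Sertoli cell genes, 6 had a control boundary peak, against 67.6% of all protein-coding genes. Of the 6, 2 were not overlapped, against 11% (Clu, and Cldn11, which was named after its values were seen). The same 2 were lost by window, against 11.5%. A differential region lay at 4 of the 6, against 62.8%. The median share kept was 33.0%, with 16.8% at Wt1, 49.2% at Sox9 and 83.4% at Dhh. Of 7 genes of Leydig, peritubular, endothelial and immune cells, 3 had a control boundary peak, against 67.6%. These 3, Acta2, Cyp11a1 and Myh11, kept 42.7%, 58.4% and 58.1%, and none was lost by window or overlap, against 11.5% and 11%. Cyp17a1, Insl3, Pecam1 and Ptprc, also named after their values were seen, had no control boundary peak. Shares of bases kept below the median of all genes were thus found in all 8 lists, those of somatic cells included. The part of cell numbers in these values was not tested.

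**Figure D5:**
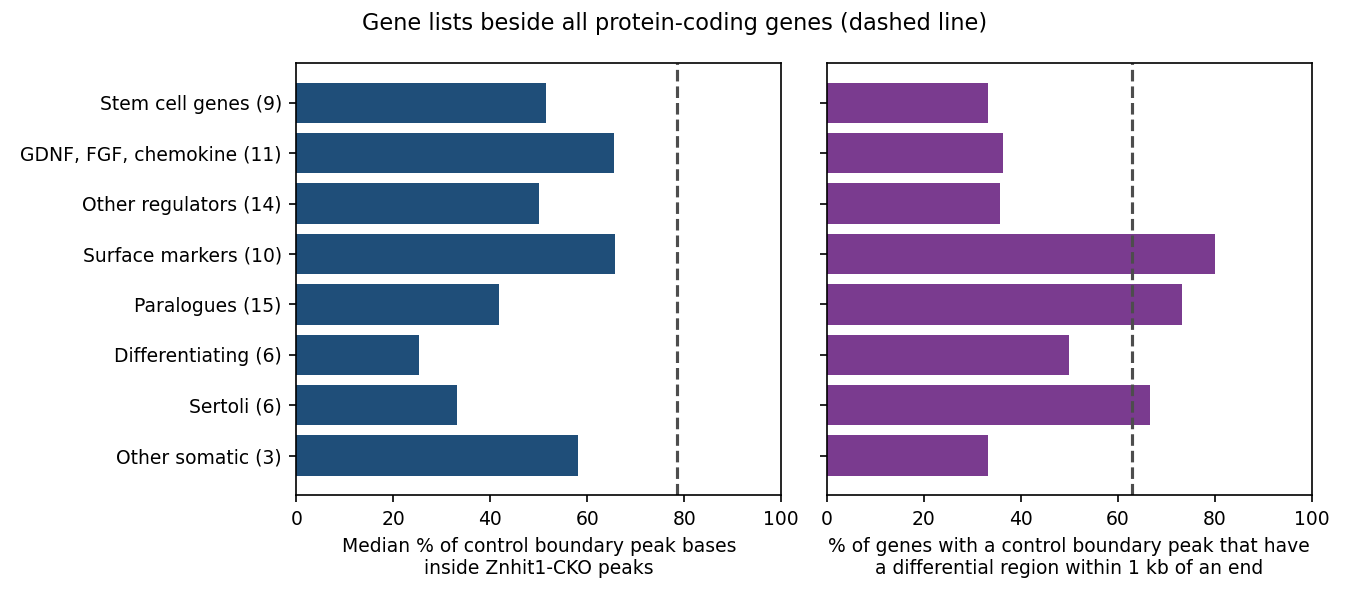
Median percent of control boundary peak bases inside Znhit1-CKO peaks (left) and percent of genes with a control boundary peak that have a differential region within 1 kb of an end (right), for the stem cell genes and 7 other lists, with the number of genes in brackets. Dashed lines are all protein-coding genes (78.6% and 62.8%). All 8 lists lie below the line on the left, and on the right the surface markers, paralogues and Sertoli genes lie above it.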

How the data were processed

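The 10 genes and all gene lists were chosen with earlier results of these data known. The submitters' processing notes list MACS2 2.2.4, Picard 2.20.7, SAMtools 1.9, BWA 0.7.17 and cutadapt 2.5, with mm10 as the build. The authors deposited 48752 control peaks, 31156 Znhit1-CKO peaks and 24367 differential regions, which the list's name credits to edgeR, as chromosome, start and end only, with no score, fold or p. The sources used here do not give peak thresholds, pooling of replicates or the direction of differential regions. Depth per library is unknown.

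Starts were shifted to count from 1. Gene spans were those of RefSeq (GRCm38.p6), and transcription starts were taken from its promoter table. Overlap meant at least 1 bp. Bases kept are bases of a control peak inside Znhit1-CKO peaks. No test was run, since each genotype has 1 list, so shares are set beside those of all protein-coding genes. Named genes were all 10, their protein-coding neighbours within 5 kb, and the up to 4 genes per list with the widest control boundary peak. Names outside this rule are marked as such in the text. Motifs were searched on both strands of the 250 bases before a start. Bedtools 2.31.1 gave the same overlap counts, with 0 of 48752 control peaks differing. On simulated peaks, where lost peaks were deleted whole and the others shifted slightly, 200 of 200 planted losses were recovered with 0 false calls. This checked the interval code only, since no simulated peak was narrowed or split. Alternatives were other windows, annotated starts alone, a minimum width, other overlaps and other definitions of loss. Python 3.11.15, numpy 2.4.6, pandas 2.3.3 and matplotlib 3.10.9 were used.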

Additional observations from a re-analysis of the deposited data

How the results depend on the processing

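Of 33 alternative values, 24 stayed within 1.5 times the reported value. The 9 genes with a control boundary peak became 5 of 7 with annotated starts alone, against 67.7% of all genes. Zbtb16, Ret and Sall4 had no annotated start and could not be scored there. The 3 genes scored as lost became 0 with a window of 2000 bp (11.4% of all genes) and 0 with 5000 bp (10.7%). With annotated starts alone 1 of 5 was lost (Lin28a, 9.68%), and Sall4 could not be counted. The lost genes became 1 where no Znhit1-CKO peak may overlap (Lin28a, 11%). They also became 1 where a differential region in the window was also required (Sall4, 6.77%). The 3 genes with a differential region became 5 of 10 with a window of 5000 bp, where the share of all genes was 71.3% in place of 62.8%. Where at least 50% of both peaks had to overlap, 5 of 11 boundary peaks were still overlapped (69% of all) and 3 of 11 peaks in the gene spans (52.1% of all). With 500 bp the lost genes were 2 of 7, against 12.2%, and they were Ret and Sall4, so the count hides a change of genes. Wider windows take in peaks of neighbouring genes, as at Lin28a. Peak bases in Znhit1-CKO (60.5% of control) ranged from 48.2% to 53.2% under the other windows and the minimum width of 500 bp. Counting only peaks nearest to the gene's own ends, an alternative chosen after seeing the data, left 8 of 10 genes, against 61.6%. Of these 8, 2 were scored as lost (Lin28a and Sall4), against 14.2%. No paired analysis was possible because each genotype has a single list of positions without values for its replicates, which also prevents leaving one out. Depth per library is unknown, and the lists give no measure of how certain a single peak is.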

Other observations

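Ends of long non-coding RNA genes lay within 1 kb of an end of 3 of the 10 genes, against 9.89% of protein-coding genes. They were Gm41876, 203 bp from the Gfra1 end, Gm14261, 909 bp from that of Sall4, and Gm33408 and Gm33460, 546 and 112 bp from the ends of Eomes. The Gm33460 span (chromosome 9, 118486244 to 118489779) holds the control peaks of 672 and 1289 bp that are given above as lying beyond the Eomes end. It also overlaps the control peak of 555 bp. The spans of Gm33408 and Gm14261 likewise overlap the Eomes control peak of 574 bp and the Sall4 control peak, with the differential regions on them. Gm33408 also reaches into the Eomes boundary peak of 1077 bp next to the start and into the differential region there. Such peaks cannot be assigned to either gene from position alone. This comparison was chosen after the data were seen.

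Short motifs in the 250 bases before the 8 starts were searched on both strands. The GC box GGGCGG was found before 3 starts, against 42.6% of all starts: 5 times at Id4, 3 times at the outer start of Etv5 and 1 time at Nanos3. The CCAAT box (CCAAT) was found before 6 of 8, against 35.4%. It was absent at Nanos3 and Lin28a. TATAAA was found before 1, Nanos2, against 11.6%. GTAAACA, a forkhead motif, was found before 1, the outer start of Etv5, against 2.62%. These are matches of letters and were not tested as binding sites.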
